A study of Bos taurus with 16 samples.

Results

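The genes described are CAGE1, MEIKIN, GCNA, RNF212 and TDRD12, 5 genes known from meiosis or from germ cells, out of 36824 entries in a read count table of bovine follicle cells. They were chosen from the counts themselves, as germline and meiosis genes with reads in most libraries of cells that are not germ cells. Their presence is therefore how they were picked, and no test is attached to it. What was examined is how their levels varied between libraries, between cumulus and granulosa cells, between the sides of the corpus luteum, and in a cumulus library with many oocyte transcripts.

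The 16 libraries fell into 4 groups of 4, namely cumulus cells and granulosa cells of Bos taurus, each taken from ipsilateral and from contralateral follicles, with the corpus luteum of the series title read as the point of reference for the side. Cumulus cells surround the oocyte and granulosa cells line the follicle wall. Every library was a pool that combined 3 animals, and no source used here gives the animals' age or breed or says whether pools share animals, so p-values measure the spread between pools. Poly(A) RNA was amplified with a full-length cDNA kit that does not keep the strand of the RNA, and total counts were 10.1 to 21.9 M (M, mega) per library.

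Meiosis is the pair of divisions by which germ cells recombine their chromosomes and make gametes, and in mammals it is carried out by oocytes and spermatocytes alone. Oocytes of antral follicles are held in prophase of the first division, inside a shell of cumulus cells to which they are joined by gap junctions. Crossovers, the later separation of homologous chromosomes and the silencing of transposons by piRNAs, small RNAs bound by PIWI proteins, each rest on proteins best known from the germ line.

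The members stand for separate parts of that programme. In mice, RNF212 is a RING-finger protein that marks and stabilises the recombination intermediates that become crossovers. MEIKIN is a kinetochore protein of the first meiotic division that in mice helps protect cohesin at the centromere. TDRD12 is a Tudor-domain protein needed for piRNA production in the mouse testis. GCNA, germ cell nuclear antigen, guards the genome of germ cells against proteins crosslinked to DNA in worms, flies and mice. CAGE1 is a cancer/testis antigen, a gene described in human testis and in tumours.

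CAGE1, MEIKIN, GCNA and RNF212 had reads in all 16 libraries, and TDRD12, the member nearest to the limit, had reads in 14. Of all entries in the table, 42.5% had reads in all 16 libraries and 47.9% in 14 or more. Of 11 other germline genes found by name, 5 were read in at least 14 libraries and were not among the genes chosen, namely TDRKH, SYCE1L, RNF17 and CCDC155 (now KASH5) in 16 and CCDC36 (now IHO1) in 15. The gene just below the limit was SYCP2L, with reads in 13 libraries, so the members are not a complete list of germline genes read in these cells.

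Levels are given as TMM-scaled CPM, meaning reads of a gene per 1 M reads of its library, after edgeR's trimmed-mean scaling of the totals. CPM is not corrected for transcript length, so levels are compared between libraries for the same gene and never between genes. In these bulk pools fewer cells of a type and less RNA per cell cannot be told apart.

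CAGE1 and TDRD12 were higher in cumulus than in granulosa cells, by 2.11-fold and 5.65-fold, while MEIKIN, GCNA and RNF212 did not pass the test. Such calls were common, since 60.2% of all entries tested were called and 29.9% were called higher in cumulus. TDRD12 passed the filter on low counts only through its cumulus libraries, and it lost the call within contralateral libraries. No member passed the test for the side of the corpus luteum in either cell type. MEIKIN and RNF212 had their highest cumulus level in the library that was richest in oocyte transcripts, whereas CAGE1, TDRD12 and GCNA did not.

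CAGE1, the cancer/testis antigen, stood at 11.3, 10.4, 12.8 and 11.7 CPM in ipsilateral cumulus and at 10.3, 12.9, 12.4 and 12.8 CPM in contralateral cumulus. It stood at 2.85, 7.34, 3.14 and 8.55 CPM in ipsilateral granulosa and at 4.12, 7.94, 6.64 and 4.08 CPM in contralateral granulosa. The 8 cumulus libraries all lay above the 8 granulosa libraries, with no overlap. The mean was 11.8 ± 1.08 CPM in cumulus and 5.58 ± 2.28 CPM in granulosa (SD, n = 8 each). The log2 fold change of cumulus over granulosa was 1.07 ± 0.23 (SE), with an adjusted p of 7.30e-04 by edgeR's quasi-likelihood test with Benjamini-Hochberg adjustment over 18038 entries.

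The spread of CAGE1 was itself unlike in the cell types. Its SD among cumulus libraries was 1.08 CPM where counting error alone gives 0.879 CPM, whereas among granulosa libraries it was 2.28 CPM where counting error alone gives 0.579 CPM. Granulosa libraries thus varied 3.00-fold between the lowest and the highest, against 1.26-fold among cumulus libraries. Over the whole table, pairs of ipsilateral granulosa libraries also differed more (chi-square per gene 42.1 to 72.3) than pairs of ipsilateral cumulus libraries (12 to 22.2). On the contralateral side the pairs were alike, at 23.4 to 44.7 in granulosa and 24.2 to 45.5 in cumulus. This chi-square is taken on raw counts, so it grows with depth where libraries differ beyond counting error. Total counts were 10.6 to 15.9 M in ipsilateral cumulus and 15.6 to 21.9 M in ipsilateral granulosa, and the part of depth was not tested. Whether the wider spread is particular to CAGE1 was not tested. CAGE1 overlaps the protein kinase gene RIOK1 in the RefSeq annotation of ARS-UCD2.0, and without strand their reads in a shared stretch cannot be told apart.

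TDRD12, the Tudor-domain gene, stood at 1.18, 1.10, 2.22 and 1.71 CPM in ipsilateral cumulus and at 1.65, 1.80, 0.713 and 1.70 CPM in contralateral cumulus. In granulosa cells it was near the limit of detection, at 0.130, 0.131, 0.513 and 0 CPM in ipsilateral and at 0.317, 0, 0.991 and 0.122 CPM in contralateral libraries. In counts this was 196 reads over all cumulus libraries and 37 over all granulosa libraries. The 2 granulosa libraries at 0 allow up to 3 counts each, which is 0.135 CPM in ipsilateral library 4 and 0.159 CPM in contralateral library 2.

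For TDRD12, 7 of 8 cumulus libraries lay above every granulosa library. The exceptions overlapped: contralateral cumulus library 3 at 0.713 CPM and contralateral granulosa library 3 at 0.991 CPM. How many of all entries separate that far was not counted. Full separation with cumulus higher, which TDRD12 lacked, held for 13.5% of all entries tested. TDRD12 averaged 1.51 ± 0.477 CPM in cumulus and 0.275 ± 0.335 CPM in granulosa (SD, n = 8 each). The log2 fold change was 2.50 ± 0.67 (SE), with an edgeR adjusted p of 0.00436. Because the filter on low counts keeps a gene with enough reads in 1 group, TDRD12 entered this test through its cumulus libraries.

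Of the 37 granulosa reads of TDRD12, 20 came from contralateral library 3, the granulosa library that also held the most oocyte reads, with 106 counts of H1FOO and 112 of BCL2L10. Contralateral cumulus library 4 held far more H1FOO, at 92.6 CPM. TDRD12 stood at 1.70 CPM there, against a median of 1.65 CPM in the other cumulus libraries. Whether oocyte RNA supplied the granulosa reads was not tested. Without contralateral granulosa library 3, the highest of its cell type for TDRD12, the fold was 9.38, with an edgeR adjusted p of 8.39e-04. Within ipsilateral libraries the log2 fold change was 3.01 (edgeR adjusted p = 0.0131), and within contralateral libraries it was 1.99 and lost the call (edgeR adjusted p = 0.0914). TDRD12 overlaps the amino acid transporter gene SLC7A9 in RefSeq, so the limit of unstranded reads applies to it as well.

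**Figure D1:**
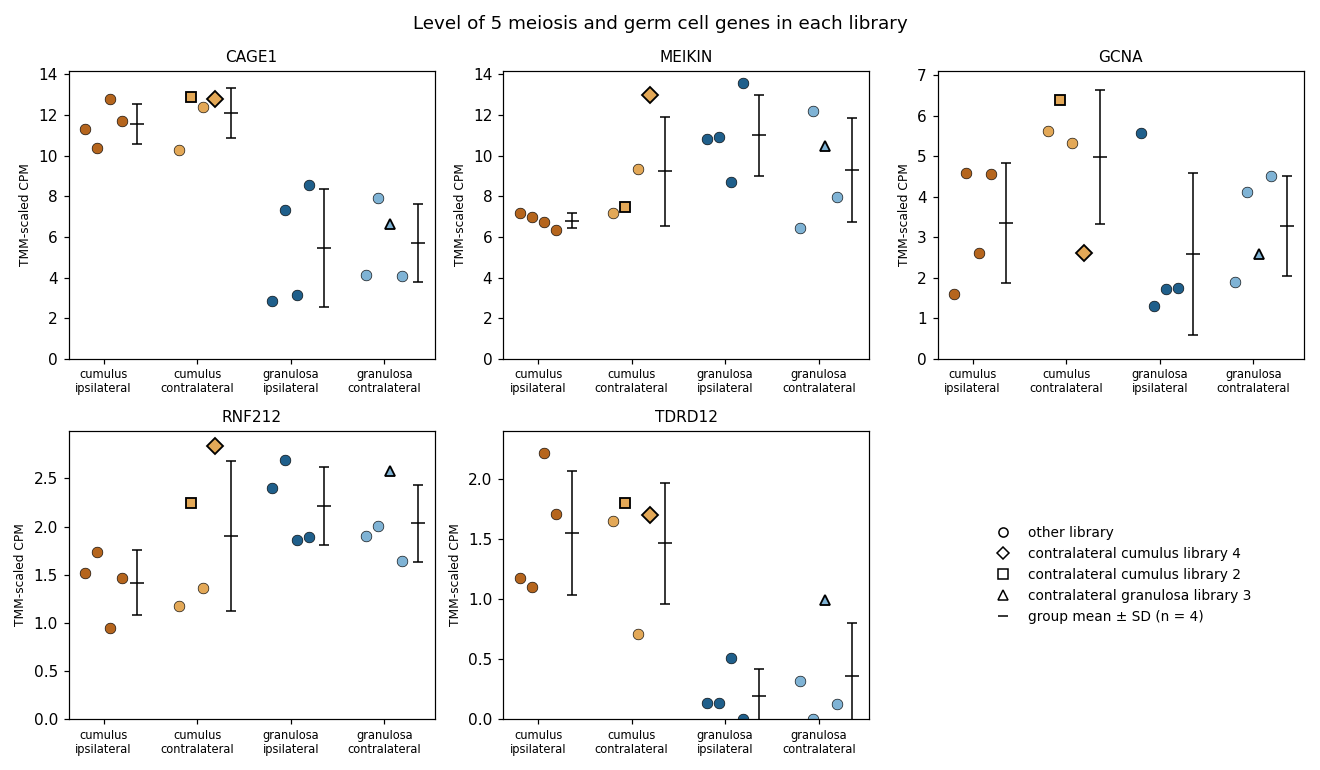
TMM-scaled CPM (vertical axis, linear, from 0) of each of the 5 genes in the 16 libraries, by group; points are libraries, and the bar beside each group is its mean ± SD (n = 4, cut at 0). CAGE1 cumulus libraries lie at 10.3 to 12.9 CPM, above all granulosa libraries, TDRD12 granulosa libraries lie at 0 to 0.991 CPM, and the ranges of cumulus and granulosa libraries overlap for TDRD12, MEIKIN, GCNA and RNF212.

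MEIKIN, the kinetochore gene, stood at 7.19, 6.97, 6.73 and 6.34 CPM in ipsilateral cumulus and at 7.17, 7.45, 9.34 and 13 CPM in contralateral cumulus. Its granulosa levels were 10.8, 10.9, 8.72 and 13.6 CPM on the ipsilateral and 6.44, 12.2, 10.5 and 7.98 CPM on the contralateral side. The 4 ipsilateral cumulus libraries were close to one another, with an SD of 0.365 CPM, below the 0.722 CPM expected from counting error. All 4 lay below the lowest ipsilateral granulosa library. How many of all entries separate so within 1 side was not counted, and edgeR called 7319 of 16525 entries between cell types in ipsilateral libraries alone. On the contralateral side the cell types overlapped.

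Over all libraries MEIKIN averaged 8.02 ± 2.20 CPM in cumulus and 10.1 ± 2.31 CPM in granulosa (SD, n = 8 each). The log2 fold change was -0.35 ± 0.17 (SE), which missed the threshold with an edgeR adjusted p of 0.0825. It passed without contralateral cumulus library 4, at -0.46 (edgeR adjusted p = 0.0243), and without contralateral granulosa library 1, at -0.42 (edgeR adjusted p = 0.0400). Within ipsilateral libraries it was -0.70 (edgeR adjusted p = 0.0189) and within contralateral libraries 0.01 (edgeR adjusted p = 0.989). The test of that difference between sides gave -0.69 ± 0.34, with an unadjusted edgeR p of 0.0588 and an adjusted p of 0.668, so the gap between the 2 within-side values was not past the threshold.

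RNF212, the crossover gene, stood at 1.52, 1.74, 0.942 and 1.46 CPM in ipsilateral cumulus and at 1.17, 2.24, 1.36 and 2.84 CPM in contralateral cumulus. Granulosa libraries stood at 2.40, 2.69, 1.86 and 1.89 CPM on the ipsilateral and at 1.90, 2.01, 2.58 and 1.64 CPM on the contralateral side. Of the cumulus libraries, 5 lay below every granulosa library and 1 lay above them all. The mean was 1.66 ± 0.614 CPM in cumulus and 2.12 ± 0.381 CPM in granulosa (SD, n = 8 each), a log2 fold change of -0.37 ± 0.26 (SE) with an edgeR adjusted p of 0.232.

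RNF212 rested on 14 to 52 counts per library. Among granulosa libraries its SD of 0.381 CPM was about the 0.366 CPM that counting error gives, whereas among cumulus libraries the SD of 0.614 CPM exceeded the 0.328 CPM of counting error. That excess rested on contralateral cumulus libraries 2 and 4, at 2.24 and 2.84 CPM. Without them the cumulus SD was 0.281 CPM (n = 6), where counting error gives 0.314 CPM. Its RefSeq gene overlaps a pseudogene, LOC101903037.

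GCNA, the germ cell nuclear antigen gene, stood at 1.61, 4.59, 2.62 and 4.57 CPM in ipsilateral cumulus and at 5.63, 6.38, 5.32 and 2.61 CPM in contralateral cumulus. In granulosa it stood at 5.57, 1.31, 1.73 and 1.75 CPM on the ipsilateral and at 1.90, 4.13, 2.58 and 4.51 CPM on the contralateral side. High and low pools occurred in each cell type, and the ranges overlapped widely. The mean was 4.16 ± 1.69 CPM in cumulus and 2.94 ± 1.58 CPM in granulosa (SD, n = 8 each), where counting error gives SDs of 0.514 and 0.427 CPM.

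The log2 fold change of GCNA was 0.48 ± 0.34 (SE), with an edgeR adjusted p of 0.233. Ipsilateral granulosa library 1 decided that outcome: without it the value was 0.83 and passed the threshold, with an edgeR adjusted p of 0.0259. GCNA and MEIKIN overlap no other RefSeq gene.

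Of the 5 members, 2 were thus called between the cell types, both higher in cumulus cells, where 60.2% of all entries tested were called and 29.9% were called higher. TDRD12 passed the filter on low counts only through its cumulus libraries, so its direction is not independent of the filter. CAGE1 alone had cell types that did not overlap with cumulus higher, which held for 13.5% of all entries tested. The median log2 fold change of the members was 0.48, beside 0.03 over all entries tested. A call between these cell types was common in the table as a whole.

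**Figure D2:**
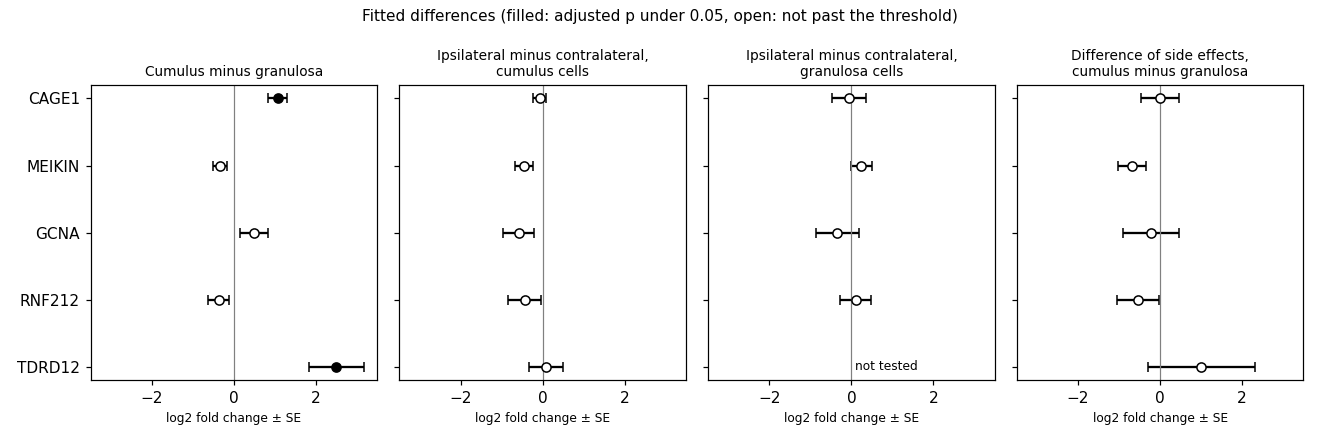
Fitted log2 fold change (horizontal axis) of each gene in the 4 comparisons, with bars of 1 SE from edgeR; filled points have an adjusted p under 0.05. CAGE1 at 1.07 and TDRD12 at 2.50 pass between cumulus and granulosa, and every other point is open.

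The comparison named in the series title is that of follicles by the side of the corpus luteum, and none of the members passed it. In cumulus cells the ipsilateral minus contralateral log2 fold changes were -0.07 ± 0.16 for CAGE1, -0.45 ± 0.22 for MEIKIN, -0.58 ± 0.38 for GCNA, -0.44 ± 0.40 for RNF212 and 0.08 ± 0.41 for TDRD12. The edgeR adjusted p-values were 0.478 to 0.965. By edgeR 0 of 16323 entries were called there (0.00%), with 1791 at an unadjusted p under 0.05, and DESeq2 called 120 (0.601%).

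MEIKIN averaged 6.80 ± 0.365 CPM in ipsilateral pools of cumulus cells and 9.24 ± 2.68 CPM in contralateral pools (SD, n = 4 each). GCNA averaged 3.35 ± 1.48 CPM in ipsilateral pools of cumulus cells and 4.98 ± 1.64 CPM in contralateral pools (SD, n = 4 each). The groups overlapped for each of the 5 members, where 5.19% of all entries tested had groups that did not, though for MEIKIN only contralateral library 1, at 7.17 CPM, lay within the ipsilateral range. Without contralateral library 4 the log2 fold change of MEIKIN was -0.24.

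In granulosa cells the ipsilateral minus contralateral values were -0.06 ± 0.42 for CAGE1, 0.24 ± 0.26 for MEIKIN, -0.34 ± 0.53 for GCNA and 0.11 ± 0.38 for RNF212, each with an edgeR adjusted p of 1.0. TDRD12 did not pass the filter on low counts in this fit. None of 16411 entries was called by edgeR (0.00%), with 579 at an unadjusted p under 0.05, and DESeq2 called 1 (0.00376%). The groups overlapped for each member, where 2.27% of all entries tested had groups that did not.

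The difference of the side effects between cumulus and granulosa was -0.00 ± 0.46 for CAGE1, -0.69 ± 0.34 for MEIKIN, -0.23 ± 0.68 for GCNA, -0.54 ± 0.52 for RNF212 and 1.01 ± 1.30 for TDRD12. The edgeR adjusted p-values were 0.668 to 1.0, and 0 of 18038 entries were called (0.00%), with 1358 at an unadjusted p under 0.05 and 1 called by DESeq2 (0.00346%).

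Ordered by mean, the groups ran from contralateral cumulus (12.1 CPM) and ipsilateral cumulus (11.5 CPM) to contralateral granulosa (5.69 CPM) and ipsilateral granulosa (5.47 CPM) for CAGE1. The step from ipsilateral cumulus to contralateral granulosa was the one step, in any member, at which neighbouring groups did not overlap. MEIKIN ran from ipsilateral granulosa (11 CPM) through contralateral granulosa (9.26 CPM) and contralateral cumulus (9.24 CPM) to ipsilateral cumulus (6.80 CPM).

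GCNA ran from contralateral cumulus (4.98 CPM) and ipsilateral cumulus (3.35 CPM) to contralateral granulosa (3.28 CPM) and ipsilateral granulosa (2.59 CPM). RNF212 ran the other way, from ipsilateral granulosa (2.21 CPM) and contralateral granulosa (2.03 CPM) to contralateral cumulus (1.90 CPM) and ipsilateral cumulus (1.42 CPM). TDRD12 ran from ipsilateral cumulus (1.55 CPM) and contralateral cumulus (1.47 CPM) to contralateral granulosa (0.357 CPM) and ipsilateral granulosa (0.193 CPM). The order of the group means therefore differed between members and rested on overlapping libraries in all but that step.

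Contralateral cumulus library 4 carried many oocyte transcripts. H1FOO, now H1-8, the linker histone of oocytes, stood there at 92.6 CPM, against a median of 0.507 CPM and a range of 0.0917 to 8.96 CPM in the other 7 cumulus libraries. BCL2L10, a BCL2-family gene expressed in oocytes, stood there at 112 CPM, against a median of 0.336 CPM and a range of 0.122 to 9.64 CPM. These were 183-fold and 332-fold ratios to the median, and the 2 genes were the ones found by name of 42 oocyte markers looked for. In granulosa libraries H1FOO lay at 0 to 5.25 CPM and BCL2L10 at 0 to 5.55 CPM.

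H1FOO did not pass the filter on low counts. BCL2L10 had a log2 fold change of cumulus over granulosa of 2.23 ± 1.35 (SE), which missed the threshold (edgeR adjusted p = 0.170). Without contralateral cumulus library 4 it was 0.72 (edgeR adjusted p = 0.596), and without contralateral granulosa library 3 it was 4.63 and passed (edgeR adjusted p = 0.0212).

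The members did not differ on that scale. MEIKIN stood at 13 CPM in that library (229 counts, 95% exact Poisson interval 11.4 to 14.8 CPM), against a median of 7.17 CPM and a highest value of 9.34 CPM in the other cumulus libraries. RNF212 stood at 2.84 CPM (50 counts, interval 2.11 to 3.74 CPM), against a median of 1.46 CPM and a highest value of 2.24 CPM. Both were at their highest cumulus level there, at 1.81 and 1.94 times the median, with an interval for RNF212 that took in the next library.

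The other members showed no such peak. CAGE1 stood at 12.8 CPM in that library, against a median of 11.7 CPM in the others, and ranked 3 of 8. TDRD12 stood at 1.70 CPM, against a median of 1.65 CPM, and ranked 4 of 8. GCNA stood at 2.61 CPM, against a median of 4.59 CPM, and ranked 7 of 8. With 1 library these values have no test, and the intervals cover counting error only.

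Contralateral cumulus library 2 had the next highest oocyte levels of the cumulus libraries, with H1FOO at 8.96 CPM and BCL2L10 at 9.64 CPM. GCNA at 6.38 CPM and CAGE1 at 12.9 CPM were at their highest cumulus level there, and RNF212 at 2.24 CPM was second. With libraries 2 and 4 both left out, CAGE1 remained higher in cumulus by a log2 fold change of 1.02 (edgeR adjusted p = 0.00476) and TDRD12 by 2.33 (edgeR adjusted p = 0.0233). In that fit RNF212 moved from -0.37 to -0.66 (edgeR adjusted p = 0.0645) and MEIKIN from -0.35 to -0.44 (edgeR adjusted p = 0.0537). GCNA moved from 0.48 to 0.55 (edgeR adjusted p = 0.235), and none of these passed the threshold. The part of oocyte RNA in the member values was not tested beyond these figures.

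Of the 8 granulosa libraries, 5 had no read of H1FOO and 0 to 4 reads of BCL2L10. In those 5 libraries MEIKIN had 61 to 302 counts (6.44 to 13.6 CPM), CAGE1 39 to 190 counts (3.14 to 8.55 CPM), GCNA 18 to 78 counts (1.73 to 4.51 CPM) and RNF212 18 to 42 counts (1.64 to 2.01 CPM). TDRD12 had 0 to 8 counts and was read in 3 of the 5. Since the members were chosen for having reads in most libraries, these values are a description of their levels there.

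**Figure D3:**
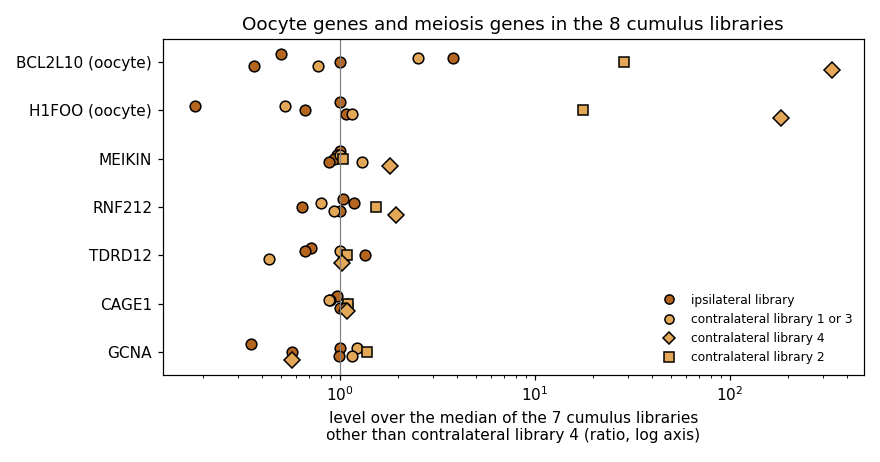
Level of 2 oocyte genes and the 5 members in each of the 8 cumulus libraries, as a ratio to the median of the 7 libraries other than contralateral library 4 (horizontal axis, log scale). In contralateral library 4 BCL2L10 and H1FOO lie at 332 and 183, MEIKIN and RNF212 at 1.81 and 1.94, and GCNA at 0.569.

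The labelled cell types could not be checked against their defining markers. Most of the table, 27607 entries with 94.4% of the counts, carries Ensembl identifiers that no source here pairs with a symbol, and 0 of 22 granulosa and cumulus markers and 0 of 13 theca markers were found by name. Of 17 leukocyte markers 1 was found, PF4, a platelet chemokine, with a mean of 0.0385 ± 0.0858 CPM over cumulus libraries and of 1.83 ± 1.29 CPM over granulosa libraries (SD, n = 8 each). It had reads in 2 of 8 cumulus and all 8 granulosa libraries, with a log2 fold change of -5.99 ± 0.81 (edgeR adjusted p = 2.42e-05). PF4 passed the filter on low counts only through its granulosa libraries. Its fold rests on 6 reads over all cumulus libraries, and 60.2% of all entries tested were called. The part of PF4-expressing cells in the member values was not tested.

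The other genes of the same pathways were taken from 6 lists, which hold 11 genes found by name besides the members. For cohesin, kinetochore and telomere attachment 3 of 14 genes were found, for the synaptonemal complex 2 of 16, for recombination 3 of 32, for meiotic entry 0 of 18, for the piRNA pathway 4 of 26, and for germ cell identity 4 of 41, members included. Of the 11 genes, 6 were tested between the cell types, of which 2 were called higher in cumulus, 0 lower and 4 were not called. Their median log2 fold change was 0.94, beside 0.03 over all entries tested, with 4 values above 0 and 2 below. That median leaned on MAJIN, at 1.41 ± 1.24 (SE), which turned to -2.08 without contralateral cumulus libraries 2 and 4. With 60.2% of all entries called, the count of 2 called is no mark of the pathway.

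TDRKH, a mitochondrial Tudor and KH domain protein of the piRNA pathway, was higher in cumulus. It stood at 8.12, 6.60, 8.0 and 6.40 CPM in ipsilateral and at 5.84, 6.86, 8.88 and 12.1 CPM in contralateral cumulus, against 1.75, 2.42, 1.35 and 3.19 CPM in ipsilateral and 2.96, 2.80, 1.59 and 0.731 CPM in contralateral granulosa. The cell types did not overlap, with cumulus higher, as held for 13.5% of all entries tested. The log2 fold change was 1.90 ± 0.28, or 3.73-fold (edgeR adjusted p = 2.09e-05). Of the 4 piRNA genes found by name, TDRKH and TDRD12 were tested and called higher, as were 29.9% of all entries tested. TDRD12 entered that test only through its cumulus libraries, while TDRD15 and RNF17 did not pass the filter on low counts.

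CCDC155, now KASH5, which in mouse meiosis links telomeres across the nuclear envelope to dynein, averaged 2.93 ± 0.939 CPM in cumulus and 0.954 ± 0.772 CPM in granulosa (SD, n = 8 each). The log2 fold change was 1.62 ± 0.42, or 3.08-fold (edgeR adjusted p = 0.00331). Ipsilateral granulosa library 3, at 2.69 CPM, overlapped the cumulus range, and within ipsilateral libraries the value was 1.18 and lost the call (edgeR adjusted p = 0.162).

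SYCE1L, a relative of a synaptonemal complex central element gene, averaged 63.5 ± 8.93 CPM in cumulus and 45.4 ± 20.1 CPM in granulosa (SD, n = 8 each), a log2 fold change of 0.48 ± 0.21 that missed the threshold (edgeR adjusted p = 0.0608). Contralateral granulosa library 4, at 87.7 CPM, was the highest of all 16, and without it the value was 0.75 (edgeR adjusted p = 1.61e-04). Without ipsilateral granulosa library 4 it was 0.57 (edgeR adjusted p = 0.0352). CCDC36, SYCP2L and MAJIN varied from at or near 0 to at most 2.92 CPM and were not called.

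**Figure D4:**
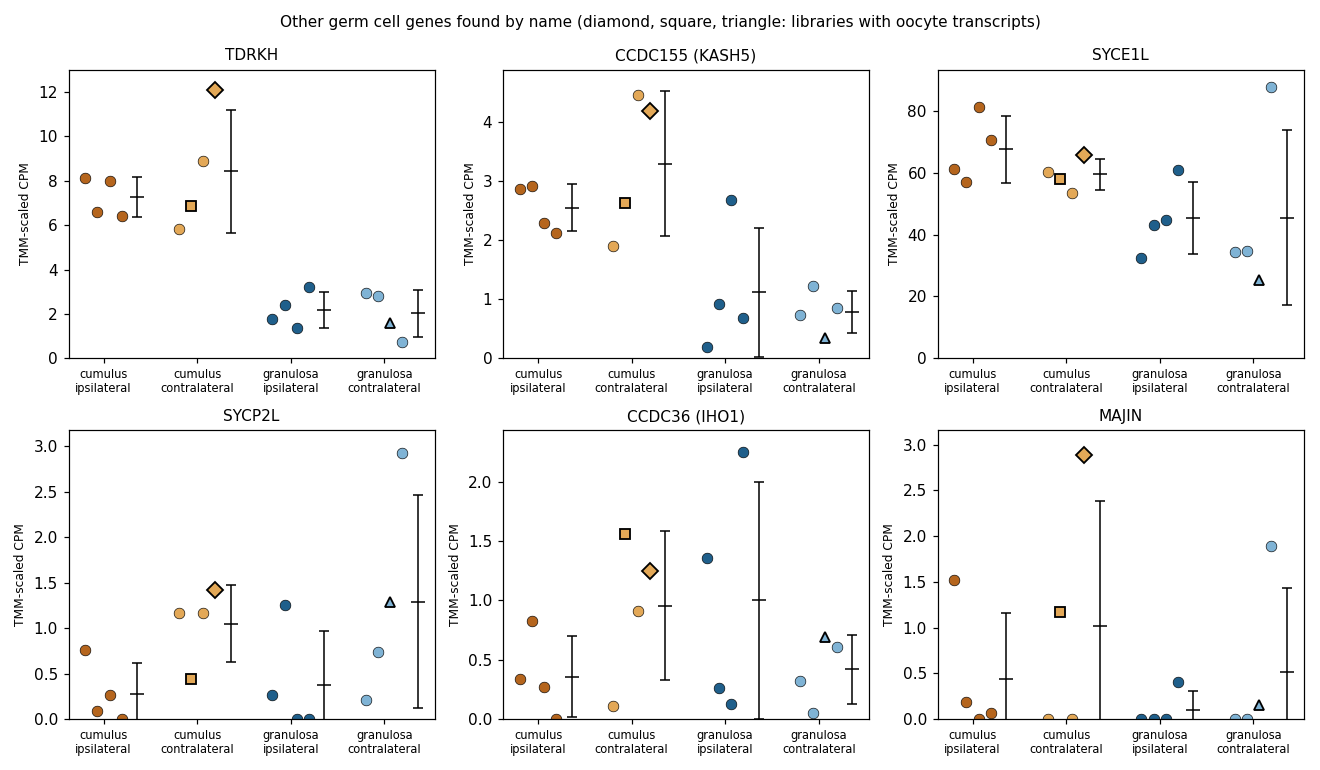
TMM-scaled CPM (vertical axis, linear, from 0) of the 6 other germline genes tested between cell types, in the 16 libraries by group, with the mean ± SD beside each group (n = 4, cut at 0). The diamond, square and triangle are contralateral cumulus libraries 4 and 2 and contralateral granulosa library 3. TDRKH cumulus libraries, at 5.84 to 12.1 CPM, lie above all granulosa libraries, which lie at 0.731 to 3.19 CPM. Such a separation held for 13.5% of all entries tested.

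Genes with the most similar profile were sought among 811 named entries by Pearson's r of log2 CPM over the 16 libraries, as a description. CAGE1 was closest to COL21A1 (r = 0.94), FAM19A4, now TAFA4 (r = 0.93), and HYDIN (r = 0.91), and with group means removed these were 0.82, 0.76 and 0.73. TDRD12 was closest to EMB (r = 0.88), COLQ (r = 0.84) and TMEM246, now PGAP4 (r = 0.83), of which EMB kept 0.62 and the others 0.30 and 0.16 once group means were removed. The likeness of TDRD12 to COLQ and TMEM246 was therefore mostly one of group means.

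RNF212 was closest to FAM46B, now TENT5B (r = 0.82), IGHM (r = 0.79) and FAM161A (r = 0.75), with 0.73, 0.81 and 0.84 after removal of group means. MEIKIN was closest to SPATA48 (r = 0.76), TMEM178B (r = 0.71) and NOS1AP (r = 0.71), with 0.62, 0.55 and 0.60 after removal. GCNA was closest to C25H16orf71, now DNAAF8 (r = 0.61), TMEM8A, now PGAP6 (r = 0.60), and NOV, now CCN3 (r = 0.58), with 0.57, 0.59 and 0.44 after removal. No member was among the 3 nearest genes of another.

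Among themselves the members did not move as one group. The highest r over the 16 libraries was 0.63, between MEIKIN and RNF212, and it was 0.43 with group means removed. CAGE1 and TDRD12, the genes higher in cumulus, had r = 0.57, which was -0.34 with group means removed. CAGE1 and MEIKIN had r = -0.12 over the libraries and 0.62 with group means removed. All these values share the libraries, their depth and, for the rarer genes, counting error.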

How the data were processed

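The authors deposited raw counts, unnormalized whole numbers of reads per entry, for cumulus and granulosa cell libraries. Per the labels' protocols, DNase-treated RNA was amplified with SMART-Seq HT, tagged with Nextera XT and read as 75-bp single ends. Per the submitters' processing notes, FastQC, Trimmomatic, STAR and DESeq2 were used. The counting program, the gene annotation, the build and all versions were not given in the sources used here. Columns were matched to samples by title, which carry no replicate numbers, and 0 columns of other samples were present. No pair of libraries within a group agreed within counting error (chi-square per gene 12.0 to 72.3).

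Counts were tested with edgeR 4.0.16 (R 4.3.3, limma 3.58.1): low-count filter with a minimum of 10 counts and a total of 15, TMM scaling, robust quasi-likelihood F-test, and Benjamini-Hochberg adjustment over all entries tested, called at 0.05. The comparison of cell types and the difference of side effects used all 16 libraries, and each side comparison used the 8 libraries of its cell type. The scripts were tested on simulated data. DESeq2 1.42.0, other scaling, no filter, left-out libraries and single sides were tried as alternatives. Poisson intervals (95%) and the limit of 3 counts for a 0 cover counting error only. The members and gene lists were chosen with earlier results of these data known. The text names the members, list genes called between cell types or found as oocyte markers, and the 3 entries most like each member. Other list genes are named where a count of 5 or fewer, or a library that stands apart, concerned them, after their values were seen. Lists of 10 endothelial and red cell, 17 mitotic cohesin and kinetochore and 15 proliferation markers had 0 genes found by name. Names and overlaps came from RefSeq on ARS-UCD2.0, with no coordinates taken.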

Additional observations from a re-analysis of the deposited data

Results flagged for a closer look

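A library far from the other 3 of its group was found in 8 of 51 groups tested, over 13 genes, where chance flags about 1 group in 20 for continuous values. That rate does not apply to groups mostly at 0 reads, as for MAJIN, or to the cumulus library already known for its oocyte transcripts. Among the members, GCNA stood at 5.57 CPM in ipsilateral granulosa library 1, against 1.31 to 1.75 CPM in the other 3 libraries of that group. TDRD12 stood at 0.713 CPM in contralateral cumulus library 3, against 1.65 to 1.80 CPM in the others.

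MAJIN, which in mice anchors telomeres to the nuclear envelope in meiosis, stood apart in 3 groups. It was at 1.52 CPM in ipsilateral cumulus library 1, against 0 to 0.183 CPM in the others, at 0.405 CPM in ipsilateral granulosa library 4, against 0 CPM in the others, and at 1.89 CPM in contralateral granulosa library 4, against 0 to 0.149 CPM in the others. SYCE1L stood at 87.7 CPM in contralateral granulosa library 4, against 25.4 to 34.7 CPM in the others. BCL2L10 stood at 112 CPM in contralateral cumulus library 4, against 0.259 to 9.64 CPM in the others, and at 5.55 CPM in contralateral granulosa library 3, against 0 to 0.211 CPM in the others.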

How the results depend on the processing

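Of 333 alternative values for the members, 302 kept direction and side of the threshold, 4 passed newly, 1 no longer passed and 26 changed sign. These values pool all 4 comparisons. By side and for the difference of side effects the main edgeR fits called 0 entries, so values from those comparisons had no call to lose. The 302 are therefore no measure of how firm the calls between cell types were. Members called between cell types numbered 1 in contralateral libraries alone and 2 to 3 with single libraries left out, and entries called 10582 to 11055. Entries called by side in cumulus numbered 120 by DESeq2 and 30 without contralateral cumulus libraries 2 and 4. DESeq2 called 1 by side in granulosa and 1 for the difference. Between cell types contralateral libraries alone turned MEIKIN to 0.01 and CCDC36 to 1.18. Without contralateral cumulus libraries 2 and 4, MAJIN turned to -2.08 and BCL2L10 to -0.61 between cell types, CAGE1 to 0.03 and RNF212 to 0.16 by side in cumulus, and CAGE1 to 0.08 and RNF212 to 0.04 in the difference. Without granulosa library 3 of the contralateral side as well, a choice made after seeing the data, MAJIN was -2.23 and the TDRD12 difference -0.14. The CAGE1 difference was 0.01 with DESeq2 size factors and 0.01 with DESeq2. With single libraries left out, sign changes occurred for SYCP2L (-0.94 to 0.68) and CCDC36 (-0.57 to 0.21) between cell types, TDRD12 by side in cumulus (-0.14 to 0.20), CAGE1 by side in granulosa (-0.36 to 0.14), and the differences of CAGE1 (-0.22 to 0.30), GCNA (-0.44 to 0.46) and TDRD12 (-0.45 to 2.15). The cause was not tested. RNF212 and TDRD12 rest on at most 52 and 37 counts per library, which limits the folds that could be seen.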

Other observations

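Of the germline genes found by name, 5 did not pass the filter on low counts between cell types. SOHLH1, a transcription factor of early oocytes and spermatogonia, had 47 counts (2.67 CPM) in contralateral cumulus library 4, 4 counts in contralateral cumulus library 2 and none in the other 14 libraries. TDRD15, a Tudor-domain relative, had 312 counts (17.7 CPM) in contralateral cumulus library 4, against 0 to 0.730 CPM in the other cumulus libraries. RNF17, a Tudor-domain protein of mouse spermatids, stood at 1.65 CPM in contralateral cumulus library 4, against a median of 0.212 CPM in the other cumulus libraries, and had at least 1 read in each of the 16 libraries. RAD51AP2 had 6 reads in all, in 2 contralateral cumulus libraries. NANOS3, a gene of primordial germ cells, had 16 reads over 9 libraries, 13 of them in cumulus and 3 in granulosa.

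Contralateral granulosa library 4 had no read of H1FOO or BCL2L10 and was the highest of the 8 granulosa libraries for SYCE1L (87.7 CPM), SYCP2L (2.92 CPM) and MAJIN (1.89 CPM). In the same library CAGE1 stood at 4.08 CPM, MEIKIN at 7.98 CPM, GCNA at 4.51 CPM, RNF212 at 1.64 CPM and TDRD12 at 0.122 CPM, each within the range of the other granulosa libraries except RNF212, which was at its lowest there. The library and these genes were singled out after their values were seen.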
